A study of Mus musculus with 12 samples.

Results

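Protocadherin transcripts were examined in urogenital sinus epithelium of C57BL/6J mice at embryonic day 15.5; the urogenital sinus is the embryonic organ from which the prostate and much of the urethra derive. The members are every gene of the deposited table whose symbol starts with Pcdh, which gave 36 of 20308 genes. They comprise 1 gene of the alpha cluster (Pcdha2), 22 of the beta cluster (Pcdhb1 to Pcdhb22), 1 of the gamma cluster (Pcdhga9) and 12 non-clustered protocadherins. The 4 Control libraries came from wildtype embryos. For the 8 Dnmt1cKO libraries, Cre recombinase driven by Shh had deleted Dnmt1, the DNA methyltransferase that copies CpG methylation onto newly made DNA, in this epithelium. Shh is itself made by the epithelium of this organ, so the deletion is limited to cells that express Shh or descend from such cells. Epithelium was separated from stroma with trypsin, and several embryos were pooled into each lysate, so a library is a pool and not an embryo.

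Protocadherins are cadherin-like adhesion proteins of the cell surface that bind copies of themselves on neighbouring cells. In the clustered loci each variable exon has its own promoter. In the alpha and gamma clusters the variable exons are spliced to shared constant exons, whereas each beta gene is a single exon with no constant part. In neurons a cell uses only a few of these promoters, CTCF and cohesin link the active ones to distant enhancers, and the silent ones carry CpG methylation. Here their transcripts are compared between an epithelium with the deletion of Dnmt1 and one without it.

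Depth and composition differed between libraries in ways that touch the results below. Control libraries held 543591 to 7577706 expected counts and Dnmt1cKO libraries 4007533 to 11970907. Dnmt1 stood at 164, 114, 237 and 2.84 CPM (expected counts scaled to a common library size, with trimmed mean of M-values factors) in the libraries labelled Control 1 to 4. In Dnmt1cKO it ranged from 22.8 to 97.0 CPM with a median of 50.7, all below Controls 1 to 3. The library labelled Control 4, the shallowest, held 1 Dnmt1 count, which goes against its label. It had a count for 6744 genes, against 9097 to 13837 in the others. Loss of Dnmt1 and general dropout therefore cannot be told apart in that library. The fitted log2 fold change of Dnmt1 was -1.29 ± 0.63 (SE), and edgeR's quasi-likelihood test gave a Benjamini-Hochberg adjusted p of 0.284. The library labelled Control 3 had little of the epithelial transcription factors Trp63 and Foxa1 (2.26 CPM each, against Trp63 values of 103 to 293 in the other 11 libraries) and the highest summed level of 10 stromal markers, at 10010 CPM. Other epithelial markers were mixed there. Shh, Krt5 and Cdh1 were also lowest (3.77, 292.5 and 863 CPM), whereas Epcam, Krt8 and Krt18 (783, 856 and 879 CPM) lay above Controls 1 and 2. The 8 epithelial markers summed to 3681 CPM in Control 3 and 4074 CPM in Control 1. Results that rest on Controls 3 and 4 are therefore given with and without them.

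Of the 36 protocadherins, 35 had a count in some library and 26 passed the filter on low counts, namely 17 beta genes, Pcdha2, Pcdhga9 and 7 non-clustered genes. None of the 26 was called higher in Dnmt1cKO at an adjusted p under 0.05, against 1.03% of all 12761 genes tested (132 genes). None was called lower, against 1.55% (198 genes). At an unadjusted p under 0.05, 3 protocadherins were higher (Pcdhb12, Pcdhb14 and Pcdhb10), against 8.19% of all genes, and 1 was lower (Pcdhb19), against 9.54%. The median fitted log2 fold change was 1.17 over the 26 protocadherins and 0.22 over all genes tested, and 19 of the 26 (73.1%) lay above 0, against 57.3% of all genes. By class, the median was 1.02 over 17 beta genes, with 12 above 0, and 1.52 over 7 non-clustered genes, with 6 above 0. The tested beta genes include 3 with no Control count, which passed the filter through Dnmt1cKO alone, as did 354 of all 12761 genes. With the Control group of such genes set at 3 counts in all, the medians of 1.02 and 1.17 stayed the same. They could not move, because at bounds of 4.75-fold to 19.7-fold these 3 beta genes still lay above both medians. The medians without these genes were not computed.

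Without Controls 3 and 4, 32 protocadherins were tested and again none was called higher, against 0.322% of all 13990 genes, or lower, against 0.0143%. The median log2 fold change was then 1.30 over 21 beta genes and 0.80 over 9 non-clustered genes, against 0.16 over all genes. The 21 beta genes include 7 with no Control count, and the 9 non-clustered genes include Pcdh11x and Pcdh9. The only Control count of Pcdh9 lay in Control 3. The fitted changes of such genes have no measured Control level behind them. DESeq2 on all 12 libraries called 2 of 33 tested protocadherins higher, Pcdhb14 (adjusted p = 0.0137) and Pcdhb12 (adjusted p = 0.0496), and none lower. Over the whole table it called 525 of 15214 tested genes higher and 1048 lower. Of 12761 genes the limma-voom fit with quality weights called 8 higher and 31 lower, and none of 26 protocadherins. The spread between libraries was wide for these genes, as the plot of fitted changes shows.

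**Figure D1:**
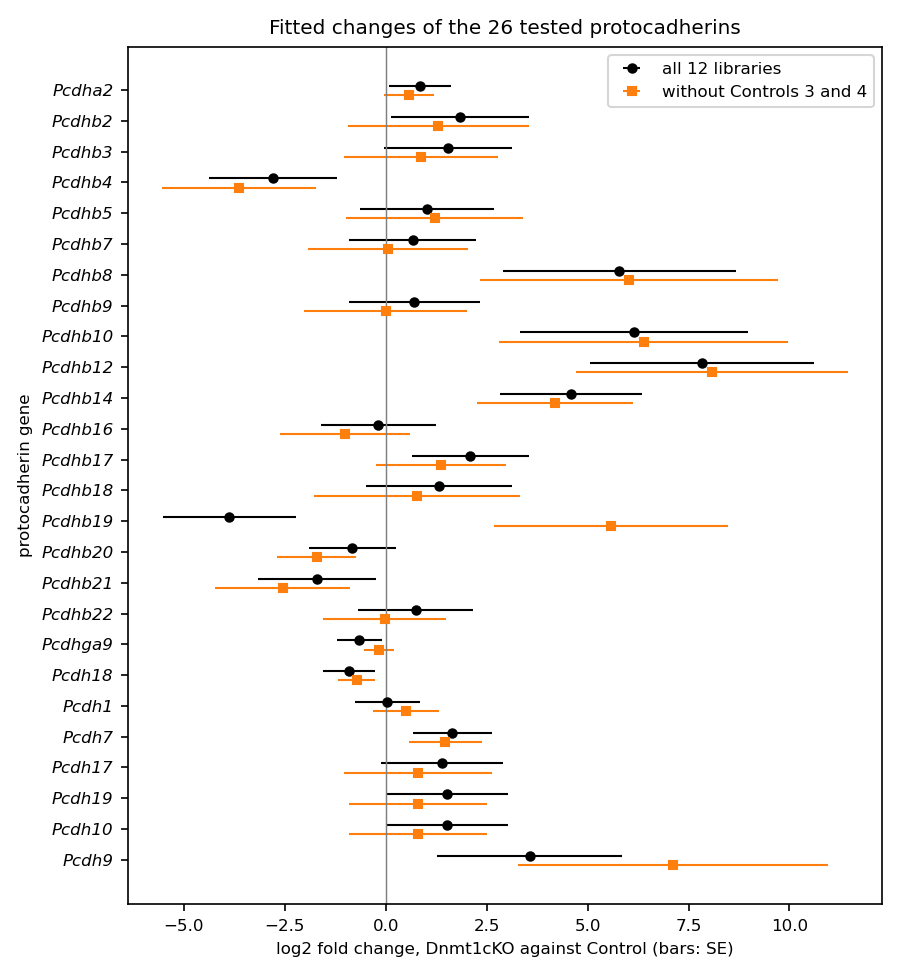
Fitted log2 fold change of Dnmt1cKO against Control (horizontal axis, bars give SE) for the 26 protocadherins tested, over all 12 libraries (black) and without Controls 3 and 4 (orange). Pcdhb19 stands at -3.87 over all libraries and at 5.57 without Controls 3 and 4, where 1 Control count of it is left. No gene passed the adjusted threshold in either fit.

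Levels differed between members by orders of magnitude. Scaled to exon length, as mean CPM per kilobase of merged GENCODE M21 exons in Dnmt1cKO, Pcdhga9 was highest at 18.1, followed by Pcdh18 at 10.7, Pcdha2 at 8.64, Pcdh1 at 3.94, Pcdhb20 at 3.24 and Pcdh7 at 2.89. In Control the same measure gave Pcdhga9 28.3, Pcdh18 19.9, Pcdhb19 8.77, Pcdhb20 5.59, Pcdha2 4.67 and Pcdh1 3.86. The place of Pcdhb19 and Pcdhb20 in Control rests on single libraries, described below. Most beta genes stood under 1 CPM per kilobase in both groups.

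**Figure D2:**
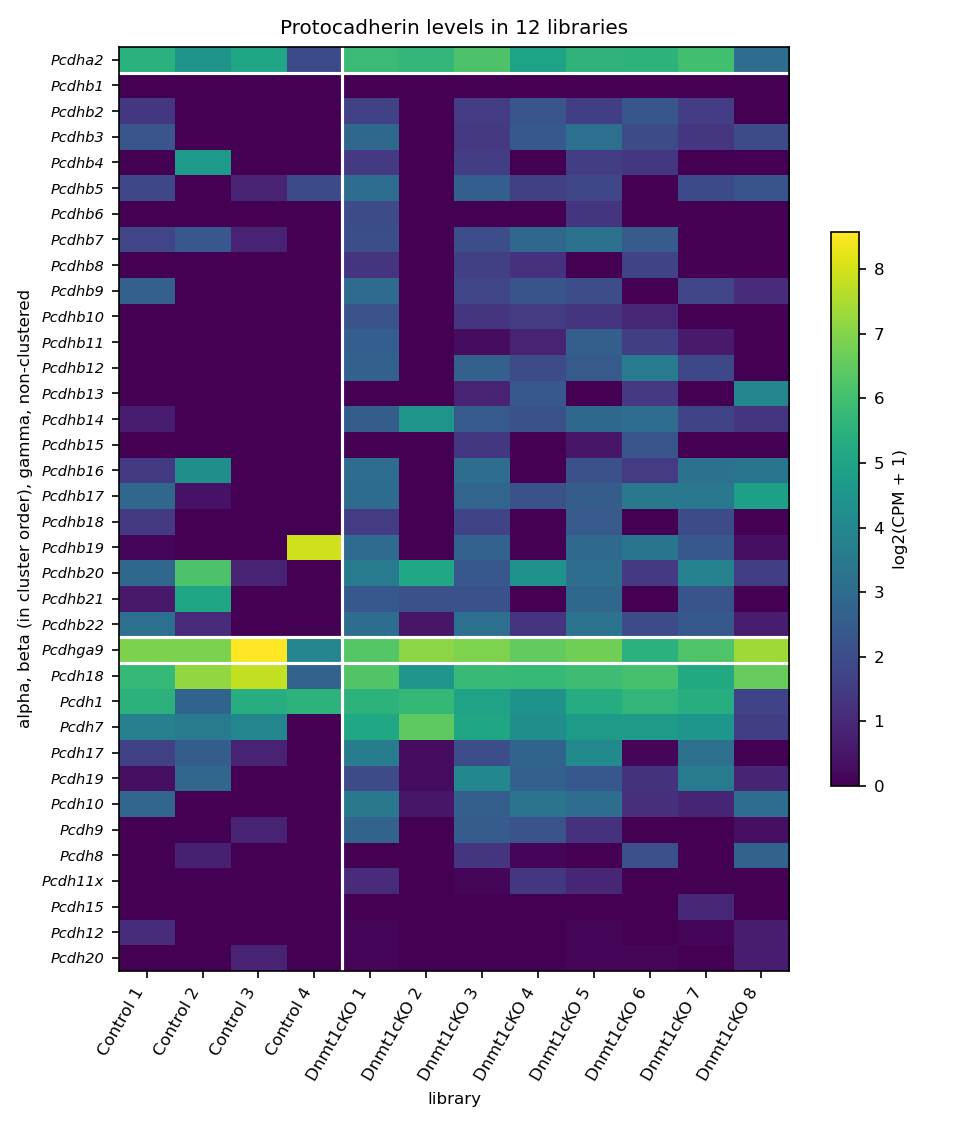
Levels of all 36 protocadherins (rows, by class, the beta genes in their order along the cluster) in the 12 libraries (columns) as log2(CPM + 1). Pcdha2, Pcdhga9, Pcdh18, Pcdh1 and Pcdh7 have counts in nearly every library, whereas the beta block is patchy, with the single high value of Pcdhb19 in the library labelled Control 4 (250 CPM) and no value above 0 for Pcdhb1.

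The beta cluster lies on chromosome 18 (GRCm38), plus strand, from 37264938, the start of Pcdhb1, to 37524479, the end of Pcdhb22. Pcdhb1 had no count in any library. For the other 21 genes, counts appeared in some libraries and were absent from others of the same group. In the libraries labelled Control 1 to 4, 13, 7, 3 and 2 of the 22 beta genes had a count. In Dnmt1cKO 1 to 8 the numbers were 19, 4, 20, 14, 19, 16, 14 and 10. Dnmt1cKO exceeded all Controls in 6 of 8 libraries, while Dnmt1cKO 2 and 8 fell within the Control range.

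Depth moved with these numbers in most libraries, with exceptions: Dnmt1cKO 2 had 4 beta genes at 4007533 counts, fewer than Control 2 with 7 at 2915193, and Dnmt1cKO 8 had 10 at 4009772. At the depth of Control 2 (2915193 counts), the expected number of beta genes with a count was 12.2 in Control 1 and 7.0 in Control 2. In Dnmt1cKO the expected numbers at that depth were 19.0, 3.93, 19.5, 14.0, 18.8, 16, 13.9 and 9.65, so the groups overlapped and 6 of 8 Dnmt1cKO libraries stayed above both Controls. Controls 3 and 4 are shallower than this depth and have no such value. As a share of the 22 genes, beta genes with a count at the depth of Control 2 made up 55.3% in Control 1, where 75.4% of 4906 genes of similar total count were present. In Control 2 the shares were 31.8% and 44.9%. In Dnmt1cKO 1, 3, 5 and 6 the beta share was the higher of the pair, as in Dnmt1cKO 3 with 88.7% against 83.3%. In Dnmt1cKO 2, 4, 7 and 8 it was the lower, as in Dnmt1cKO 8 with 43.9% against 68.1%. The part of depth and of overall gene detection in the group difference was not tested beyond this.

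**Figure D3:**
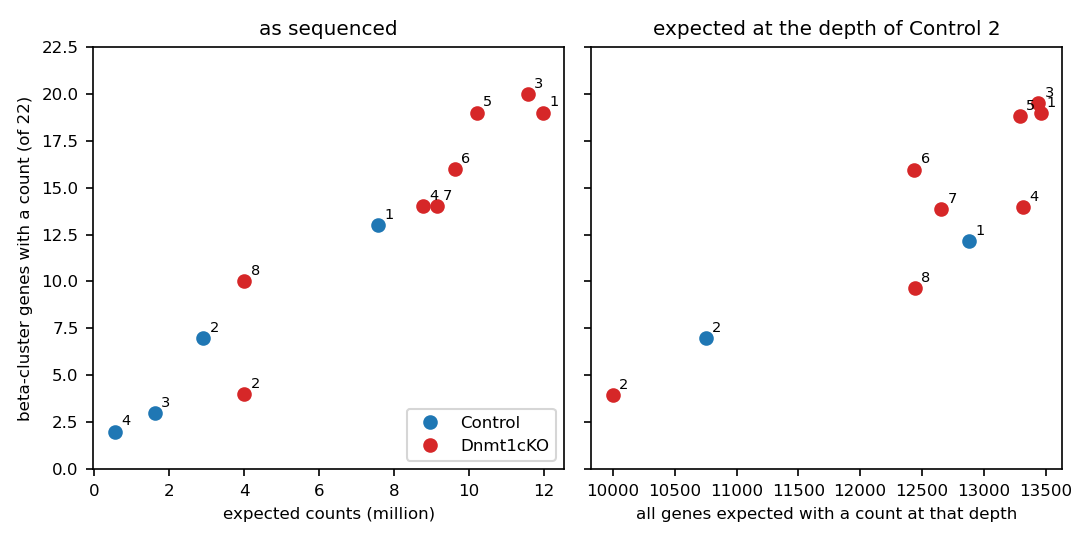
Number of beta-cluster genes with a count in each library against total expected counts (left), and the number expected at the depth of Control 2 against the number of all genes expected with a count at that depth (right, Controls 3 and 4 left out as shallower). Numbers beside the points are library numbers; Dnmt1cKO 1, 3 and 5 reach 18.8 to 19.5 genes on the right, and Dnmt1cKO 2 is lowest on both axes there.

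When a beta gene was present its count was rarely marginal. Of 264 values (22 genes in 12 libraries), 123 were 0 and 141 were above 0, and 122 of the latter (86.5%) were at least 10 counts. Over the 4906 genes of similar total count, 79.8% of the values above 0 reached 10 counts. The set of genes used also differed between libraries. The most abundant gene gave 10.8%, 11.3% and 10.1% of the summed beta level in Dnmt1cKO 1, 3 and 5, so the sum there was spread over many genes. Pcdhb20 alone gave 57.6% in Dnmt1cKO 2 and 47.1% in Control 2, Pcdhb17 gave 43.2% in Dnmt1cKO 8, and Pcdhb19 gave 98.9% in the library labelled Control 4.

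Summed over the cluster, the beta level was 40.9, 154, 2.26 and 253 CPM in the libraries labelled Control 1 to 4 and 58.8 to 96.2 CPM in Dnmt1cKO, with a median of 65.1. The Dnmt1cKO sums lay close together and the Control sums on both sides of them, so the groups overlapped. The log2 ratio of the mean sums was -0.69 over all libraries, -1.10 without Control 3, 0.089 without the library labelled Control 4 and -0.48 without both.

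Pcdhb14 was the only protocadherin whose groups did not overlap with Dnmt1cKO above, a pattern met by 2.59% of all genes tested, and none lay wholly below, against 0.486%. Its levels were 0.615, 0, 0 and 0 CPM in the libraries labelled Control 1 to 4, and 4.82, 21.1, 4.39, 3.41, 6.23, 7.29, 2.40 and 1.43 CPM in Dnmt1cKO 1 to 8. Every Dnmt1cKO library held at least 5 counts of it, and the Control group held 5 counts in all, from Control 1. The fitted log2 fold change was 4.59 ± 1.76 with an adjusted p of 0.155 in edgeR. Leaving out single libraries moved the estimate between 4.01 and 8.54, the highest without Control 1, and the adjusted p between 0.0566 and 0.249. Without Control 1 no Control count was left, so 8.54 gives a direction and not a size.

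Pcdhb12 had no count in the 4 Control libraries and 5.33, 0, 5.24, 2.89, 4.39, 10.4, 2.60 and 0 CPM in Dnmt1cKO 1 to 8. It was thus present in 6 of 8 Dnmt1cKO libraries and absent from Dnmt1cKO 2 and 8. With the Control group set at 3 counts in all, the pooled Dnmt1cKO level was at least 19.7-fold higher, or at least 7.15-fold without Control 1 (edgeR adjusted p = 0.126 over all libraries). This bound and those that follow cover counting error only, on reads without molecular identifiers, and not the dropout between libraries that the zeros in Dnmt1cKO 2 and 8 show. Part of this gene's reads could belong to its neighbours, because 12% of its 50-base stretches occur in other beta genes.

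Pcdhb10 likewise had no Control count and stood at 3.57, 0, 1.46, 1.86, 1.49, 0.999, 0 and 0 CPM in Dnmt1cKO 1 to 8. By counting error alone the pooled level was at least 6.39-fold higher, or at least 2.32-fold without Control 1, although Dnmt1cKO 2, 7 and 8 were also at 0 and the edgeR adjusted p was 0.247. Pcdhb8 was present in 4 of 8 Dnmt1cKO libraries at 1.34 to 2.40 CPM and in no Control library, by counting error alone at least 4.75-fold higher with an adjusted p of 0.295 in edgeR, or at least 1.73-fold without Control 1. In all, 7 of the 21 beta genes with any count (Pcdhb6, Pcdhb8, Pcdhb10, Pcdhb11, Pcdhb12, Pcdhb13 and Pcdhb15) had no Control count and a count in at least 2 Dnmt1cKO libraries. The same held for 8.69% of the 15837 genes with a count in the table and for 1 of 12 non-clustered genes, Pcdh11x. No protocadherin showed the reverse, a Control count with none in Dnmt1cKO. The Controls hold far fewer counts in all, as given above, so the direction of this asymmetry is also that of depth. Pcdhb6, Pcdhb11, Pcdhb13, Pcdhb15 and Pcdh11x fall outside the rule for named genes and were picked after their values were seen.

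**Figure D4:**
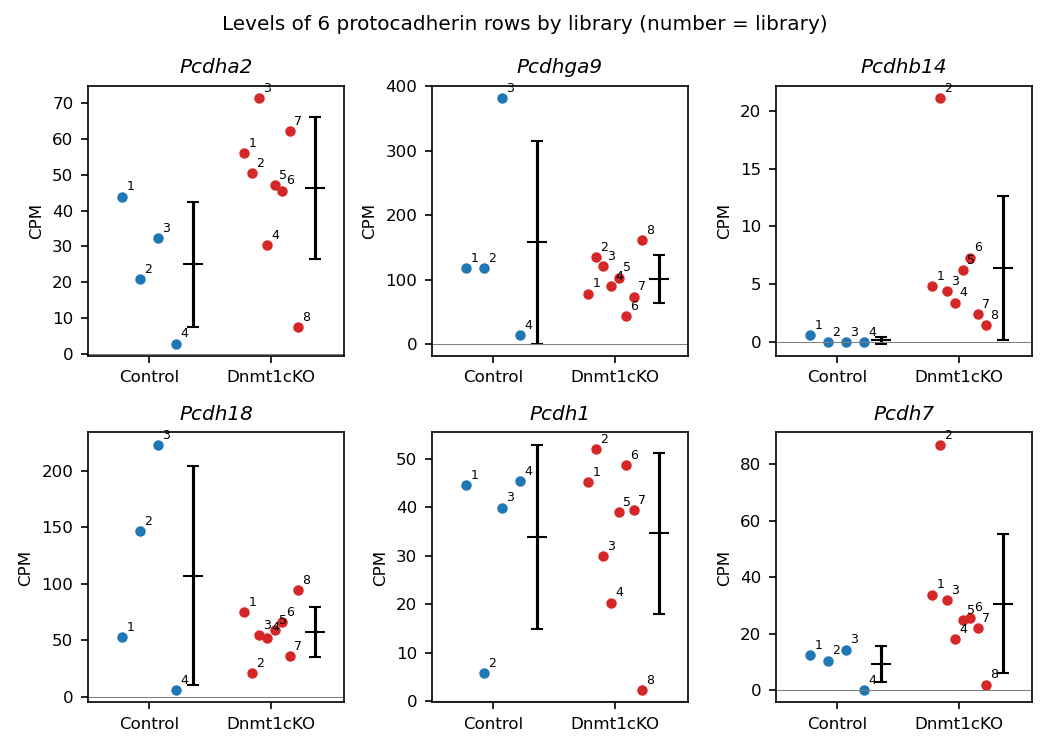
Levels in CPM of 6 protocadherins in each library (points, numbered by library; bars give mean ± SD over 4 Control and 8 Dnmt1cKO libraries). Pcdhb14 is the gene whose Dnmt1cKO values (1.43 to 21.1) all lie above the Control values (0 to 0.615); the other 5 overlap, and Dnmt1cKO 8 is lowest of its group for Pcdha2, Pcdh1 and Pcdh7 but highest for Pcdh18 and Pcdhga9.

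Several beta genes with fitted changes below 0 had most of their Control counts in 1 library. Pcdhb19 stood at 0.123, 0, 0 and 250 CPM in the libraries labelled Control 1 to 4, the last from 88 counts, and at 6.93, 0, 5.55, 0, 6.67, 9.09, 4.17 and 0.285 CPM in Dnmt1cKO 1 to 8. Its fitted log2 fold change was -3.87 ± 1.64 (edgeR adjusted p = 0.225) and turned to 5.77 without the library labelled Control 4, with 1 Control count left. Pcdhb4 had counts in Control 2 alone among Controls, at 24.6 CPM, and ranged from 0 to 1.93 CPM in Dnmt1cKO with a median of 0.799. Its log2 fold change of -2.79 ± 1.59 (edgeR adjusted p = 0.375) turned to 5.84 without Control 2. No Control count was then left, so 5.84 gives a direction and not a size. Pcdhb20, the beta gene with most counts, stood at 6.39, 72.5, 0.754 and 0 CPM in the libraries labelled Control 1 to 4 and at 1.70 to 33.9 CPM in Dnmt1cKO, with a median of 8.99. Its log2 fold change was -0.83 ± 1.08 (edgeR adjusted p = 0.743) and 2.0 without Control 2. Pcdhb21, picked after its values were seen, stood at 0.492, 33.0, 0 and 0 CPM in the libraries labelled Control 1 to 4 and at 0 to 6.49 CPM in Dnmt1cKO, with a median of 3.42. Its log2 fold change was -1.70 ± 1.47 (edgeR adjusted p = 0.589).

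A numbered code in the sample descriptions is not explained by the labels, and its values 4, 5, 6 and 7 occur in both groups. Within these codes, 15, 13, 19 and 18 of the 22 beta genes had a higher log2(CPM + 1) in Dnmt1cKO than in Control. The shares of beta genes were 68.2%, 59.1%, 86.4% and 81.8%, against 45.3%, 51.5%, 58.2% and 73.3% of the 15837 genes with a count. For the non-clustered genes 7, 6, 7 and 10 of 12 were higher. Codes 6 and 7 hold Controls 3 and 4, and codes 2 and 3 hold Dnmt1cKO libraries only. In the 4 codes, Pcdhb14 was higher in Dnmt1cKO by 1.74, 2.14, 2.85 and 2.03 and Pcdhb12 by 2.64, 1.96, 2.43 and 1.79 on that scale. Neither could be lower in any code, since Pcdhb14 lay wholly above Control and Pcdhb12 had no Control count. The direction within codes therefore adds nothing for these genes.

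The alpha and gamma clusters were each represented by a single gene symbol, although GENCODE M21 holds 13 protein-coding alpha genes and 21 gamma genes; the others were not analysed here. The constant exons are shared within each cluster. Of the 50-base stretches in the Pcdha2 transcripts, 58.2% occur in other alpha genes, and of those of Pcdhga9 39.1% occur in other gamma genes. What these values count, a single variable exon or the whole cluster's output, cannot be told apart from the table. Pcdha2 spans 36939205 to 37187657 and Pcdhga9 spans 37736936 to 37841870 of chromosome 18, both on the plus strand.

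Pcdha2 stood at 43.9, 20.9, 32.4 and 2.84 CPM in the libraries labelled Control 1 to 4. In Dnmt1cKO 1 to 8 it stood at 56.1, 50.5, 71.4, 30.3, 47.2, 45.6, 62.2 and 7.42 CPM. Of the Dnmt1cKO libraries, 6 exceeded every Control, and Dnmt1cKO 4 and 8 lay within the Control range. The log2 fold change was 0.85 ± 0.78 with an adjusted p of 0.610 in edgeR. Within codes 4 to 7 Pcdha2 was higher in Dnmt1cKO by 0.69, 0.52, 0.53 and 2.92 on the log2(CPM + 1) scale.

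Pcdhga9 had the most counts of all protocadherins. It stood at 118, 118, 381 and 14.2 CPM in the libraries labelled Control 1 to 4 and between 44.0 and 162 CPM in Dnmt1cKO, with a median of 97.0. The Dnmt1cKO values lay between the extremes of Control, set by Controls 3 and 4. The log2 fold change was -0.65 ± 0.56 (edgeR adjusted p = 0.588), 0.24 without Control 3 and -0.16 without Controls 3 and 4. Pcdha2 and Pcdhga9 thus had fitted changes of opposite sign, neither of which passed the test.

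The non-clustered protocadherins lie at separate loci with promoters of their own. Promoter sequences from RefSeq (GRCm38.p6) were matched by symbol for 9 of the 36 protocadherins, all non-clustered, and those of the others were not used here. In the 300 bases from 250 before to 50 after the start, CpG dinucleotides, the letters CG on either strand, numbered 26 in Pcdh17, 24 in Pcdh10, 23 in Pcdh18, 18 in Pcdh9 and Pcdh19, 14 in Pcdh8, 11 in Pcdh7, 8 in Pcdh15 and 4 in Pcdh20. The median over 27025 promoters was 7, with quartiles of 3 and 21, and 94.2% held at least 1. The 250 bases before the start, 5′ to 3′ on the gene's strand with CpG in capitals, are given for 3 of them, since CpG is the site at which the deleted enzyme acts. Pcdh18 (chr3:49757317-49757566, minus strand, 23 CpG) had the most counts of the class, Pcdh9 (chr14:93890680-93890929, minus strand, 18 CpG) the largest fitted change, and Pcdh20 (chr14:88471397-88471646, minus strand, 3 CpG) the fewest CpG.
Pcdh18: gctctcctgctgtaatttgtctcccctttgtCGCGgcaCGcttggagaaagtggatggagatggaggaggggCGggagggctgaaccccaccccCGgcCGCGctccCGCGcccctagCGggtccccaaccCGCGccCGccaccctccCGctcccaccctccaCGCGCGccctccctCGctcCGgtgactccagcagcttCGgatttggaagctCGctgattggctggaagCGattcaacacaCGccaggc
Pcdh9: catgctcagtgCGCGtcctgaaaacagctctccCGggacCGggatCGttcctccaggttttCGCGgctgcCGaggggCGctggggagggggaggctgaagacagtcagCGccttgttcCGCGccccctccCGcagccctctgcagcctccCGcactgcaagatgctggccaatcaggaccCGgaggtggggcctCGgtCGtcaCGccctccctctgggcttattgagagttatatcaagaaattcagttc
Pcdh20: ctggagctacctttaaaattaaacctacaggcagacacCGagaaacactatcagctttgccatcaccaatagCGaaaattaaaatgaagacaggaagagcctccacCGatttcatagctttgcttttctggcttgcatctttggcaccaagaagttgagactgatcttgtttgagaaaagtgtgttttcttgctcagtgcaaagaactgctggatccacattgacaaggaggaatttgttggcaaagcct

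The Pcdh18 and Pcdh9 windows are dense in CpG, with fewer CpG in 78.4% and 69.9% of all promoters over the 300 bases, and the Pcdh20 window is sparse, with fewer in 31.9%. Methylation was not measured in these libraries. Pcdh18 was among the most abundant protocadherins, Pcdh17, Pcdh10 and Pcdh19 were low, and Pcdh20 had 6 counts in the whole table.

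Pcdh18, a cell-surface protocadherin whose cytoplasmic part binds the adaptor Dab1, stood at 52.6, 146, 223 and 5.69 CPM in the libraries labelled Control 1 to 4. In Dnmt1cKO it ranged from 21.1 to 94.1 CPM with a median of 56.8. The Control values lay on both sides of the Dnmt1cKO range, and the log2 fold change was -0.91 ± 0.64 (edgeR adjusted p = 0.491), or -0.29 without Control 3. It was the only tested non-clustered gene with a fitted change below 0. Stromal markers moved with its Control values: the sum of 10 markers was 4735, 5163, 10010 and 1274 CPM in the libraries labelled Control 1 to 4, the same order. In Dnmt1cKO the sum ranged from 265.3 to 6231 CPM and did not share the order of Pcdh18, since Dnmt1cKO 2 had the highest marker sum and the lowest Pcdh18. The part of stromal RNA in this result was not tested.

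Pcdh7, the counterpart of the frog NF-protocadherin, stood at 12.4, 10.5, 14.3 and 0 CPM in the libraries labelled Control 1 to 4. In Dnmt1cKO 1 to 8 it stood at 33.9, 86.9, 32.0, 18.2, 24.8, 25.7, 21.9 and 2.0 CPM. All Dnmt1cKO libraries but Dnmt1cKO 8 lay above every Control. The log2 fold change was 1.65 ± 0.97 with an adjusted p of 0.394 in edgeR, between 1.21 and 1.88 with single libraries left out. Pcdh1, an adhesion protein of airway and other epithelia and a member picked after its values were seen, did not share this pattern. It stood at 44.6, 5.73, 40.0 and 45.5 CPM in the libraries labelled Control 1 to 4 and at 2.28 to 52.1 CPM in Dnmt1cKO with a median of 39.3. Its log2 fold change was 0.04 ± 0.80.

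Pcdh9, a neuronal protocadherin, had 1 count in the Controls, in Control 3, and stood at 5.62, 0, 4.70, 3.61, 1.32, 0, 0 and 0.285 CPM in Dnmt1cKO 1 to 8. It was absent from 3 Dnmt1cKO libraries, so the groups overlapped. The ratio of pooled levels was 32.1, with a 95% counting interval of 5.68 to 1273 that covers counting error only (edgeR adjusted p = 0.444). Pcdh10, which binds the actin-regulating WAVE complex, stood at 6.02, 0, 0 and 0 CPM in the libraries labelled Control 1 to 4 and at 0.449 to 9.85 CPM in Dnmt1cKO with a median of 6.18. Its log2 fold change was 1.53 ± 1.5 (edgeR adjusted p = 0.640), and 8.23 without Control 1, the only Control with counts, at an adjusted p of 0.0793. With no Control count left, 8.23 gives a direction and not a size.

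Pcdh17 and Pcdh19 (the human PCDH19 is an X-linked epilepsy gene) had log2 fold changes of 1.40 ± 1.51 and 1.52 ± 1.51; both were picked after their values were seen. The remaining 5 non-clustered genes were too sparse to be tested. Pcdh8 had 2 counts in Control and 73 in Dnmt1cKO, Pcdh11x 0 and 42, Pcdh15, a protein of the hair-cell tip link, 0 and 9, Pcdh12, an endothelial protocadherin, 9 and 5, and Pcdh20 1 and 5. All 9 Pcdh12 counts in Control came from Control 1. In these bulk pools, a lower level cannot be told apart as fewer cells with a transcript or less transcript per cell.

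Genes that act with protocadherins were read from the same fit. Of 21 tested partners inside the cell, which include the kinases bound by the shared cytoplasmic domain of alpha and gamma proteins, the WAVE complex and the catenins, none was called higher and 1 lower, against 1.03% and 1.55% of all genes. That gene was Marcks, an actin-binding substrate of protein kinase C. It stood at 413, 292, 553 and 2335 CPM in the libraries labelled Control 1 to 4 and at 153 to 438 CPM in Dnmt1cKO. The log2 fold change was -1.80 ± 0.42 (edgeR adjusted p = 0.016), and -0.63 once the library labelled Control 4 was left out (adjusted p = 0.339), so the call rests on that library. Ptk2, the focal adhesion kinase, lay wholly above Control, a pattern met by 1 of the 21 partners and by 2.59% of all genes tested. It stood at 55.1, 42.8, 3.77 and 2.84 CPM in the libraries labelled Control 1 to 4 and 62.3 to 120 CPM in Dnmt1cKO (edgeR adjusted p = 0.138). The values of Controls 3 and 4 rest on 5 counts and 1 count. Ptk2 was picked after its values were seen. The median log2 fold change of the 21 was -0.19 over all libraries and 0.028 without Controls 3 and 4, against 0.22 and 0.16 over all genes.

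Tested regulators of the clustered promoters numbered 18 (CTCF, cohesin and its loaders, Smchd1, DNA methyltransferases and their readers and erasers). None was called higher or lower, against 1.03% and 1.55% of all genes. Their median log2 fold change was -0.75 over all libraries and 0.20 over 19 genes without Controls 3 and 4. Of 23 tested other cadherins, none was called higher and 1 lower, against 1.03% and 1.55% of all genes. Their median log2 fold change was 0.12, and 0.50 over 25 genes without Controls 3 and 4. That gene, Cdh2 (N-cadherin), stood at 27.8, 6.74, 595 and 68.2 CPM in the libraries labelled Control 1 to 4 and at 3.01 to 49.3 CPM in Dnmt1cKO. Its log2 fold change was -2.86 ± 0.79 (edgeR adjusted p = 0.045), -0.46 without Control 3 (adjusted p = 0.855) and 0.52 without Controls 3 and 4. Of 20 tested genes around the 3 clusters none was called, against the same 1.03% and 1.55% of all genes. Their median was 0.53, against 1.02 for the beta genes. Taf7, a subunit of the general transcription factor TFIID encoded between the beta and gamma clusters, was chosen after its values were seen and had a log2 fold change of 0.76 ± 0.52 (edgeR adjusted p = 0.486).

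Markers of other cell types were present in both groups. None of the tested stromal (10), neural and glial (8), endothelial (4), immune (4) or epithelial (8) markers was called. Over all genes tested 1.03% were called higher and 1.55% lower, so sets this small would hold few calls or none at those shares. All 10 stromal and all 8 neural and glial markers had fitted log2 fold changes below 0, with medians of -1.48 and -1.94. Without Controls 3 and 4 the medians were -1.10 over 10 stromal and -1.29 over 9 neural and glial markers, with 2 of the latter above 0. Without these Controls the median went from -1.295 to 1.22 for immune, -0.30 to 0.24 for epithelial and 0.27 to -0.27 for endothelial markers. The summed level of 10 neural and glial markers was 37.0 to 888 CPM in Control and 14.5 to 761 CPM in Dnmt1cKO. The part of these markers' cells in the beta values was not tested. Summed endothelial markers were 8.53 to 124 CPM in Control and 4.90 to 54.5 CPM in Dnmt1cKO, and immune markers 0 to 211 and 5.83 to 54.1 CPM.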

How the data were processed

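RNA was measured in 12 libraries, 4 Control and 8 Dnmt1cKO, grouped by their genotype labels. The authors deposited RSEM expected counts per gene symbol, which are estimated counts in which reads fitting several genes were divided; 38.5% of genes had a fractional value. RSEM 1.2.3, Bowtie 0.12.9, bcl2fastq 2.17.1.14 and the build mm10 are named in the submitters' processing notes. Neither annotation nor strand use is stated there, so genes with near-identical or overlapping copies are uncertain. Poly(A) RNA was used without molecular identifiers, per the labels' protocols.

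Expected counts were rounded and fitted on the whole table with edgeR 4.0.16 in R 4.3.3 (trimmed mean of M-values scaling, filterByExpr with a minimum count of 10 and a total of 15, robust quasi-likelihood F-test, two-sided). P-values were Benjamini-Hochberg adjusted over all 12761 genes tested and called under 0.05. DESeq2 1.42.0, limma 3.58.1, other scalings, filters, left-out libraries and replicate blocks were alternatives. The p-values reflect only the spread among these pools, which may be technical.

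The members and gene lists were chosen with earlier results of these data known. Named were Dnmt1, every called protocadherin, in each class the 3 tested members with the largest fitted rise, the 2 with the largest fitted fall and the one with most counts, members whose groups do not overlap, and up to 4 called genes per list. Positions come from GENCODE M21. Detection at a common depth is the expected number under thinning. A gene with 0 counts was set at 3 counts for bounds.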

Additional observations from a re-analysis of the deposited data

Results flagged for a closer look

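Among 36 groups of 4 or 8 libraries, 10 had a library separated from the others by a gap above Dixon's 95% critical value. Chance alone gives about 1 in 20 for groups not picked by their values, and low counts with many zeros make such gaps common. Many of these genes were named for large fitted changes in the same data. A group with counts in only 1 library reaches the largest possible gap by construction, so the rate of 1 in 20 is no fair measure here. Among Controls, Pcdhb14 stood at 0.615 CPM in Control 1 and at 0 in the others, Pcdh10 at 6.02 CPM in Control 1 and at 0 in the others, and Pcdh9 at 0.754 CPM in Control 3 and at 0 in the others. Pcdhb4 stood at 24.6 CPM in Control 2 with the others at 0, and Pcdhb20 at 72.5 CPM in Control 2 with the others at 0 to 6.39. Pcdhb19 stood at 250.2 CPM in the library labelled Control 4, with the others at 0 to 0.123. Marcks stood at 2335 CPM in the library labelled Control 4, with the others at 292 to 553, and Cdh2 at 594.8 CPM in Control 3, with the others at 6.74 to 68.2. Among Dnmt1cKO libraries, Pcdhb14 stood at 21.1 CPM in Dnmt1cKO 2, with the others at 1.43 to 7.29, and Pcdh7 at 86.9 CPM in Dnmt1cKO 2, with the others at 2.0 to 33.9.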

How the results depend on the processing

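No protocadherin was called in any edgeR or limma-voom setting, and DESeq2 called 2 of 33 higher. Over all genes, 132 were called higher and 198 lower; with DESeq2 525 and 1048, with limma-voom 8 and 31, with RLE scaling 170 and 726, with library totals alone 113 and 47, and without Controls 3 and 4 45 and 2. Leaving out single libraries gave 60 to 657 higher and 36 to 494 lower, the extremes without the library labelled Control 4 and without Control 1. The numbers in titles and codes showed no clear pairing of the libraries (correlations of deviations -0.05 to 0.07). With dropout and depth this uneven, weak correlations cannot exclude a pairing. With the title number as a replicate block 21 were higher and 29 lower, and with the code as a replicate block 137 and 84; the lowest protocadherin adjusted p was 0.944 and 0.176. Of 4 Controls, 0 correlated best with a library of their own title number and 1 with one of their own code. Some log2 fold changes reversed; the cause was not tested beyond the libraries left out. Pcdhb19 was 2.80 with limma-voom, 5.57 without Controls 3 and 4 and -4.30 to 5.77 with single libraries left out. Pcdhb4 was 0.19 with limma-voom, 2.93 with the code block and -3.21 to 5.84 with single libraries left out, the highest with no Control count left. Pcdhb20 was 0.71 and 1.48 with the code and title blocks and -1.29 to 2.0 with single libraries left out. Pcdhga9 was 0.060 and 0.046 with these blocks and -0.94 to 0.24 with single libraries left out. Cdh2 was 0.52 without Controls 3 and 4. Depth limits these results: the library labelled Control 4 holds 543591 counts, so a gene at 0 there may be present at several CPM.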

Other observations

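Single Dnmt1cKO libraries differed in which protocadherins they held. Dnmt1cKO 2 had counts for 4 beta genes, Pcdhb14, Pcdhb20, Pcdhb21 and Pcdhb22, and the highest Pcdhb14 (21.1 CPM), Pcdhb20 (33.9 CPM) and Pcdh7 (86.9 CPM) of the group. Dnmt1cKO 8 had the highest Pcdhb17 (27.4 CPM), Pcdhb13 (14.8 CPM), Pcdh8 (5.70 CPM) and Pcdhga9 (162 CPM), and the lowest Pcdh1 (2.28 CPM), Pcdh7 (2.0 CPM) and Pcdha2 (7.42 CPM). Dnmt1cKO 6 and 7, which carry the same code in their descriptions as Dnmt1cKO 8, had Pcdh1 at 48.6 and 39.5 CPM and Pcdha2 at 45.6 and 62.2 CPM. These genes were picked after their values were seen.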
